A study of Mus musculus with 686 samples.

Results

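The 100 lncRNA transcripts described here were those whose small RNA fragments were most concentrated in mouse liver, out of 9139 lncRNA transcripts counted. They were chosen by a measured ratio. Each library was scaled to counts per 1000000 lncRNA counts (RPM), medians were taken per tissue over the ground control libraries of the Live Animal Return (LAR) extraction, and the liver median plus 1 was divided by the highest median of the other 12 tissues plus 1. The 100 members carried 86 gene symbols, and the choice used 234 of the 686 libraries, 19 of them from liver. Because these values picked the members, the liver excess in those libraries is a description and was not tested.

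The study sequenced small RNA from 13 solid tissues of female BALB/cAnNTac mice aged 3 or 8 months. Flight (FL) mice lived on the International Space Station, habitat ground control (HGC) mice lived in flight hardware on Earth, and vivarium ground control (VGC) mice lived in standard cages of 4. In LAR the FL mice spent 39.5 days on the station, and tissues were collected 2 to 4 days after splashdown and snap frozen. In the ISS Terminal (TERM) extraction the mice were killed 22 to 24 days after launch, and the carcasses were frozen whole, slowly on the station, and thawed for 60 to 90 minutes before dissection. Spleen was the exception in TERM: by the study's methods it was removed before freezing and kept in RNA Later. The labels name no mutant allele or drug in any group. Liver gave 58 libraries, 1 per mouse: 10 FL, 9 HGC and 10 VGC of LAR, and 10 FL, 10 HGC and 9 VGC of TERM. LAR and TERM differed at once in flight time, return to Earth, anaesthetic (acepromazine was added in TERM), freezing and dissection, so that these cannot be told apart between them. In bulk tissue, fewer cells of a type and less RNA per cell cannot be told apart either.

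Long non-coding RNAs are transcripts without a long open reading frame, and in a small RNA library only short pieces of them are read. Some lncRNA genes are hosts of microRNAs: the primary transcript folds into a hairpin, which is cut to a mature miRNA that guides repression of messenger RNAs. miR-122 is the dominant miRNA of hepatocytes and is known for its part in lipid metabolism and in hepatitis C virus replication. A short read that matches a mature miRNA also matches any annotated lncRNA whose exon contains the hairpin, and these counts do not say which RNA the read came from.

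Some libraries stood apart from their labels. Compared over 724 miRNAs with the median profile of each tissue, 166 of the 686 libraries were closest to a tissue other than their label. Among the 58 liver libraries 7 were closest to spleen, thymus, pancreas, heart or kidney: FL replicates 2 and 4, HGC replicate 12 and VGC replicates 12 and 14 of LAR, and HGC replicate 11 and VGC replicate 14 of TERM. The summed level of 5 hepatocyte miRNAs was 591 to 43200 per 1000000 miRNA counts in these 7 (median 1640) and 263000 to 550000 in the other 51 (median 454000). A further 8 libraries with another tissue's label had the profile of liver. Liver libraries held 2071988 to 13682042 lncRNA counts, median 6210196. Results are given with and without the libraries whose profile went against their label.

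Only 3 of the 100 members had a liver median of at least 100 RPM, and each of them holds a microRNA hairpin in an exon. They were Gm29966 (transcript ENSMUST00000235304.1), Gm49890 and E130102H24Rik. Of the 99 members found by identifier in the GENCODE M21 annotation, these 3 (3.03%) held a miRNA, compared with 52 of 8810 lncRNAs of the whole table (0.59%). A miRNA was also common among abundant lncRNAs in general, at 14 of the 93 annotated transcripts with a liver median of at least 1000 counts (15.1%). The other 97 members had liver medians between 0.126 and 3.24 RPM, and 48 of them had a median of at most 1 count in the liver libraries that chose them.

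The exons of Gm29966 contain Mir122. On GRCm38, Gm49890 lies at chr4:88909855-88938521 on the minus strand, with 3 exons, and Mir31 fills bases 280 to 385 of its 1087-base transcript. E130102H24Rik lies at chr4:101346531-101356248 on the minus strand, with 2 exons, and Mir101a fills bases 245 to 327 of its 741 bases. The authors counted on GRCm39, so positions come from a match of transcript identifiers to the older build. The mature miRNAs inside the 2 hosts on chromosome 4 are shown because the host counts are set beside theirs below. They are from RefSeq (GRCm38.p6), 5′ to 3′, with the seed, bases 2 to 8, in capitals.
mmu-miR-31-5p: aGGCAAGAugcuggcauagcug
mmu-miR-31-3p: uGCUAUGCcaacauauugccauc
mmu-miR-101a-5p: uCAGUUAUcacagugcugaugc
mmu-miR-101a-3p: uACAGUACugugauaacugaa

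Gm29966 (GRCm38 chr18:65244287-65252621, plus strand, 2 exons of 7350 bases) was the leading member by far, with a median of 299000 RPM in liver against 1180 RPM in brown adipose tissue (BAT), the next tissue, and a ratio of 252. In the libraries that did not choose the members and kept to their label, its liver level ran from 41700 to 354000 RPM around a median of 222000 (n = 35). Gonadal adipose tissue (GAT) ran from 515 to 8550 RPM around 1970 (n = 37), and mesenteric adipose tissue (MAT) had the same median (n = 8). Brain was lowest, with a median of 446 RPM. The range of liver did not overlap that of GAT, although single diaphragm libraries reached 140000 RPM. The 7 liver libraries against their label held 695 to 1529 RPM, and the 8 libraries of other labels with a liver profile held 98817 to 430475 RPM. In edgeR's quasi-likelihood test against the mean of the other 12 tissues, Gm29966 was higher in liver by 7.84 ± 0.43 (log2, SE) in FL of LAR (Benjamini-Hochberg adjusted p = 3.37e-32) and by 6.38 ± 0.37 in TERM (adjusted p = 4.7e-46). Without the libraries against their label these were 8.36 ± 0.60 (adjusted p = 3.86e-20) and 7.53 ± 0.26 (adjusted p = 2.9e-78).

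**Figure D1:**
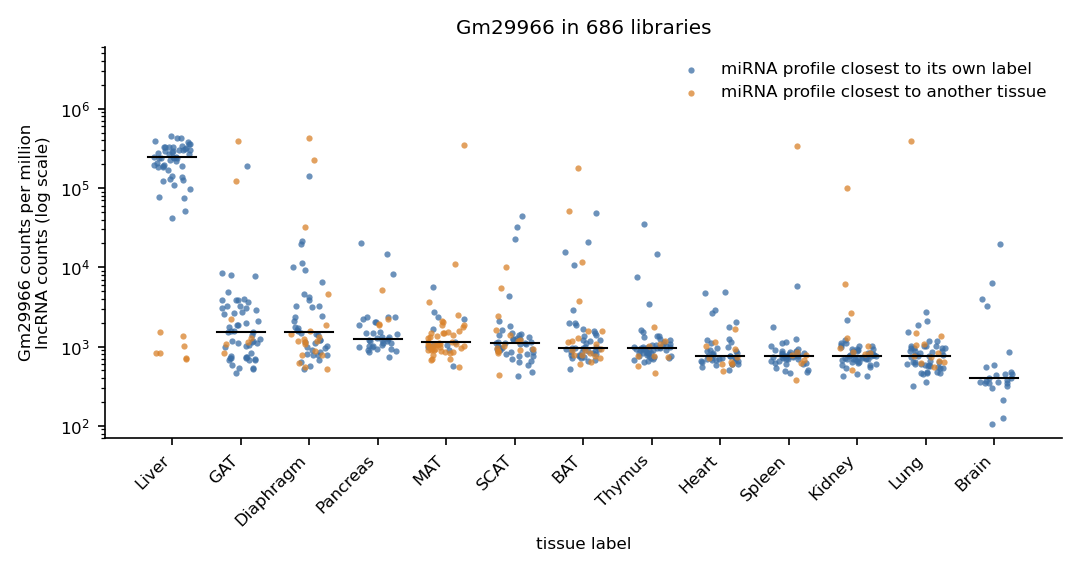
Gm29966 in every library, by tissue label, as counts per 1000000 lncRNA counts on a log scale. Points are libraries, bars are medians of the libraries that kept to their label, and orange points are libraries whose miRNA profile was closest to another tissue. Liver libraries of their own profile sit at 41700 RPM or more, and the 7 orange liver points sit at 695 to 1529 RPM.

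The counts of Gm29966 were almost the counts of miR-122. In the 51 livers with a liver profile, the Gm29966 count was 1.003 times the sum of miR-122-5p and miR-122-3p counts (median, range 1.001 to 1.019), and 48 of the 51 were within 1%. The excess over miR-122 was 668 per 1000000 lncRNA counts in these livers and 655 in the 7 liver libraries against their label. In lung the median ratio was 4.85 and in kidney 7.27. After the miR-122 counts were taken away, the libraries used for the choice left 630 RPM in liver, and other tissues left between 290 RPM (brain) and 903 RPM (pancreas). Liver was then the sixth of 13 tissues, and the ratio fell from 252 to 0.698. This subtraction was chosen after the data were seen.

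Gm49890 counts were almost the counts of miR-31 in every tissue. The ratio of the host count to miR-31-5p plus miR-31-3p had a median of 1.000 in liver and in each other tissue, and all 58 liver libraries lay within 1%. So did every library of 9 other tissues, 57 of 59 diaphragm, 57 of 60 GAT and 55 of 57 MAT libraries, with a highest ratio of 1.057 in GAT. Without the miR-31 counts a liver median of 0.483 RPM was left, against 0.525 RPM in lung. The level of Gm49890 was 3310 RPM in liver and 1770 RPM in lung in the libraries of the choice. In the others that kept to their label, liver ran from 393 to 4390 RPM (median 2140, n = 35) and lung from 591 to 4450 RPM (median 1890, n = 28). Liver and lung overlapped across nearly their whole ranges there, and thymus, the third tissue, had a median of 561 RPM. Against the mean of the other tissues Gm49890 was higher in liver by 3.37 ± 0.33 in FL of LAR (edgeR adjusted p = 1.71e-15) and by 2.89 ± 0.22 in TERM (adjusted p = 8.97e-31), or by 3.71 ± 0.37 and 3.31 ± 0.15 without the libraries against their label (adjusted p = 1.28e-13 and 2.47e-59).

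E130102H24Rik counts exceeded those of the miRNA inside it, and the excess was largest in liver. The host count was 2.60 times the miR-101a count in liver (range 2.27 to 3.24 over 51 libraries) and 1.12 times in kidney. The miR-101 family is known to repress the histone methyltransferase Ezh2, and miR-101b, a near copy of miR-101a, comes from another locus, on chromosome 19. The 2 sequences below show how close miR-101b-3p is to the Mir101a hairpin: over hairpin bases 50 to 68 they differ at 1 of 19 positions, the substitution A17G (hairpin base, position from the 5′ end of miR-101b-3p, miRNA base). The capital marks that position, and both are from RefSeq (GRCm38.p6).
Mir101a hairpin, bases 50 to 68: guacaguacugugauaAcu
mmu-miR-101b-3p: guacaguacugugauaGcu

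Over all libraries that kept to their label, the order of tissues for the host was that of neither miRNA alone. Set on the same scale, per 1000000 lncRNA counts and over libraries that kept to their label, miR-101b-3p had a median of 3410 in liver and 757 in spleen, the next tissue. miR-101a-3p was highest in kidney (2090), and liver (1290) came after lung (1490) and spleen (1430). E130102H24Rik stood at 3350 in liver and 2460 in kidney. Its first tissue was that of miR-101b and its second was the first of miR-101a. Libraries of the choice were among these, and outside the choice its second tissue was spleen, with a median of 2020. In the 12 tissues other than liver the host count was 1.12 to 1.38 times the miR-101a count (medians). The count left over after miR-101a was 0.597 of the miR-101b-3p count in liver and between that and 0.720 in all other tissues. These are ratios of counts within a library, and whether the surplus reads were miR-101b reads was not tested. In the libraries outside the choice that kept to their label, E130102H24Rik ran from 737 to 7270 RPM in liver (median 3110), from 1100 to 3660 in spleen (median 2020) and up to 7400 in kidney (median 2000). These 3 tissues overlapped. Its excess in liver over the mean of other tissues was 2.34 ± 0.28 in FL of LAR (edgeR adjusted p = 5.52e-11) and 2.02 ± 0.19 in TERM (adjusted p = 2.93e-21), or 2.86 ± 0.21 and 2.41 ± 0.13 without the libraries against their label (adjusted p = 6.31e-20 and 1.46e-48).

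**Figure D2:**
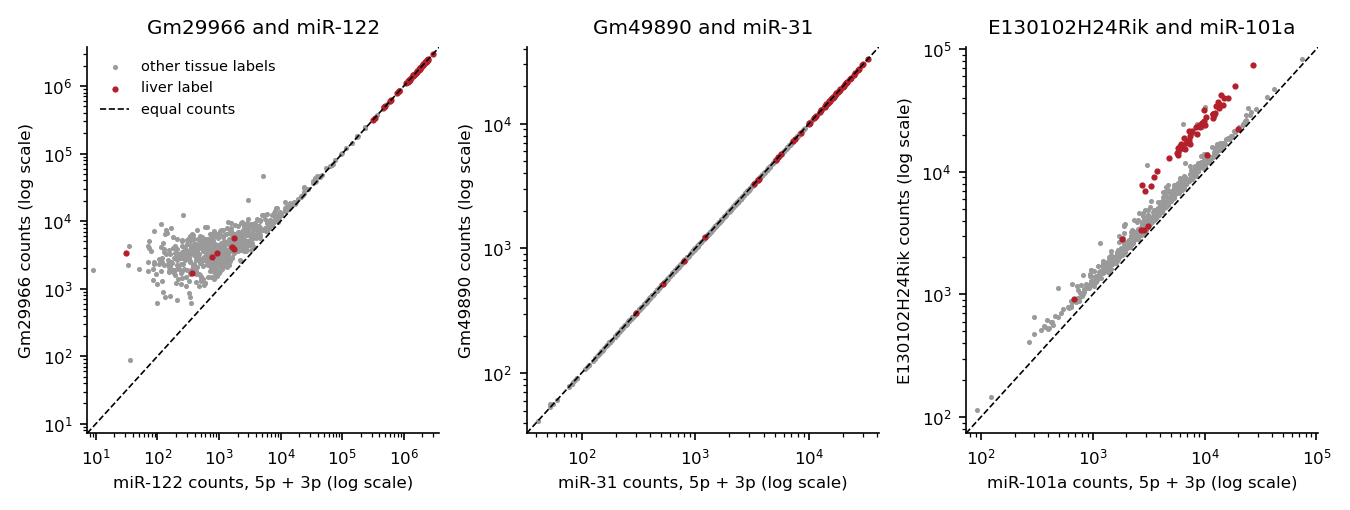
Counts of 3 host lncRNAs against the summed 5p and 3p counts of the miRNA inside each, 1 point per library, both axes on a log scale. Red points carry the liver label, grey points another label, and the dashed line marks equal counts. Gm49890 lies on the line or close to it, at a ratio of 1.057 at most, Gm29966 leaves it where miR-122 is scarce, and E130102H24Rik lies above it, most of all in liver at a median of 2.60 times.

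The remaining 97 members were rare fragments. In the libraries outside the choice that kept to their label, their summed level ran from 17.4 to 392 RPM in liver (median 53.3, n = 35) and from 28.9 to 72.8 RPM in MAT (median 56.0, n = 8). The 2 ranges overlapped. Few MAT libraries entered, since 46 of the 57 had a profile closest to another tissue. Over all libraries liver was the highest tissue for the sum (median 54.8 RPM, n = 58). GAT followed with 40.9 RPM (n = 60), and MAT had a median of 32.1 RPM (n = 57). The 19 livers of the choice are among these, so the first place of liver is partly set by the choice. The ratio was below 1.2 for 73 of the 100 members, and 2 members reached 2 or more. For 35 members every other tissue had a median of 0. The last members inside were Gm35330 (ENSMUST00000223067.1, ratio 1.0533) and Gm41318 (1.0519), and the first transcripts outside were 4930401G09Rik and Gm42397, both at 1.0492. There was no gap in the ratio at the threshold. Several members were transcripts of the same gene: 10 symbols covered 24 members, among them 5 of Jpx, an activator of the X inactivation RNA Xist, and 3 of 1700030N03Rik. Jpx is named here after its values were seen, and its 5 transcripts overlapped the small RNA Gm27875 on the same strand.

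A second transcript of Gm29966, ENSMUST00000235231.1 (GRCm38 chr18:65244299-65245960, 1132 exon bases), was second in the order with 1.08 RPM in liver and a median of 0 elsewhere. In FL livers of LAR that kept to their label it ran from 0.198 to 2.03 RPM (median 0.962, n = 8), and in FL livers of TERM from 0.857 to 2.99 RPM (median 1.62, n = 10). In the 4 control groups its medians were 0.934 to 1.58 RPM, and single livers ran from 0.292 to 9.46 RPM, the highest in HGC of TERM. The first transcript, which holds Mir122, had the highest level of all 100 members in liver. Gm31343, sixth in the order (chr8:8377090-8391702), had medians of 1.61 RPM in liver and 0.540 RPM in thymus. 9030616G12Rik, ninth (chr10:128971197-128978115), had 0.568 RPM in liver and a median of 0 in every other tissue, also in the libraries outside the choice.

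A group of 8 members shared a stretch of sequence, and most of them stood near the top of the order. D730045A05Rik, AC106834.1, Gm27224, 2310047D07Rik and Gm39456 were at places 4, 5, 7, 10 and 13, followed by Gm45277 (34), Gm13465 (59) and Gm41318 (100). Gm45277 and Gm13465 are named after their values were seen. They belong to 8 genes on 7 chromosomes, and all 8 transcripts contain the same run of 26 bases within their first 115 bases (GENCODE M21). A read that lies within this run matches every one of them. Shared sequence as such was no trait of the members. Of those with a sequence, 32.3% shared a run of 30 bases with a lncRNA of another symbol, against 36.2% of all lncRNAs. Further groups of 6 and 2 members were linked by such runs, the first with both transcripts of Gm35330.

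Of 8810 lncRNA transcripts, 9 held the run of 26 bases (0.102%). That run was found by comparing the 8 members, so this share is a description. The ninth, Gm30467, was not a member: it had 3.15 RPM in liver and 6.21 RPM in GAT. The 8 members moved together between liver libraries, with a Pearson r of 0.633 to 0.989 for counts over 58 libraries (median 0.831, 28 pairs). Other rare members with a liver median of at least 5 counts gave −0.015 to 0.659 (median 0.231, 34 pairs). The points share library depth, and for the 8 members possibly the same reads. D730045A05Rik and Gm27224, on different chromosomes, had equal counts in 358 of 686 libraries and counts within 2 of each other in 622. The 8 values are therefore not 8 independent measurements, and the authors' counting may have split or repeated reads among them.

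In libraries that kept to their label, the summed level of the 8 was 10.5 RPM in liver (2.83 to 42.7, n = 51) and 10.3 RPM in thymus (0 to 28.8, n = 49). Spleen followed with 5.83 RPM, and pancreas was lowest with 1.57 RPM. Liver and thymus thus did not differ beyond their spread. The order turned with the extraction. D730045A05Rik had medians of 3.60 RPM in liver and 1.12 RPM in GAT in FL of LAR, but 1.06 RPM in liver and 2.06 RPM in thymus in TERM. In TERM all 8 had a median in thymus or another tissue above that in liver, although each was higher in liver than the mean of the other tissues (edgeR, 0.91 to 2.15 on the log2 scale, adjusted p from 5.93e-18 to 0.00187). In FL of LAR the same contrast gave 2.46 to 3.89 (adjusted p from 1.28e-20 to 5.05e-08).

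**Figure D3:**
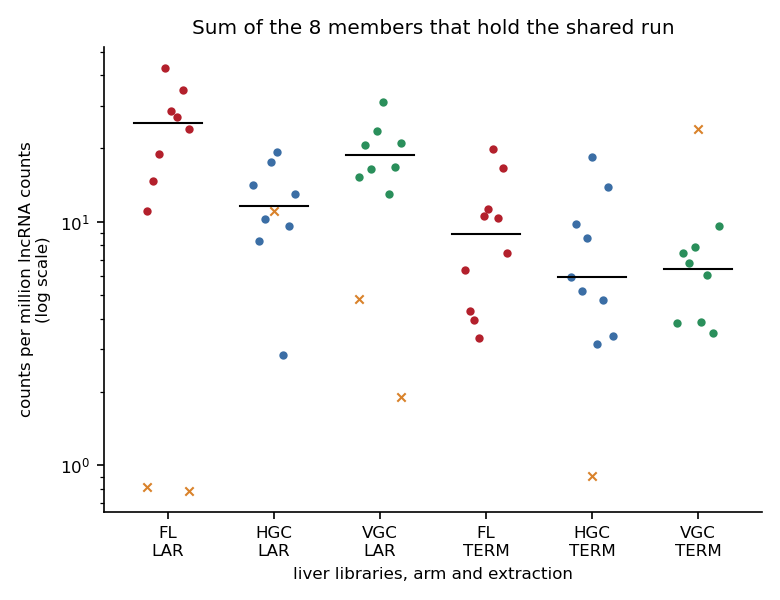
Summed level of the 8 members with the shared run in each liver library, as counts per 1000000 lncRNA counts on a log scale, by arm and extraction. Dots are libraries that kept to their label, bars are their medians (25.5 RPM in FL of LAR and 8.89 RPM in FL of TERM), and crosses are the 7 libraries against their label.

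For the members as a whole, the liver excess was weaker in the 452 libraries that had not chosen them. Liver had the highest median of all 13 tissues for 55 of the 100 members in FL of LAR, where 1.48% of all lncRNAs did, and for 39 in TERM, where 2.46% did. Without the libraries against their label it was 53 (1.85% of all) and 35 (1.93%). In 38 members in FL of LAR and 52 in TERM another tissue had a higher median. The smallest ratios in TERM belonged to the 2 transcripts of Gm35330 and to Gm45056. Gm35330 (chr13:5611460-5638945) had 1.85 RPM in liver and 6.32 RPM in MAT, and Gm45056 (chr7:82115766-82120432) had 0.701 RPM in liver and 4.03 RPM in pancreas. Gm26608 (chr5:28019465-28071105), among the higher liver levels of the choice at 1.61 RPM, had 0.793 RPM in liver and 1.14 RPM in GAT in TERM.

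**Figure D4:**
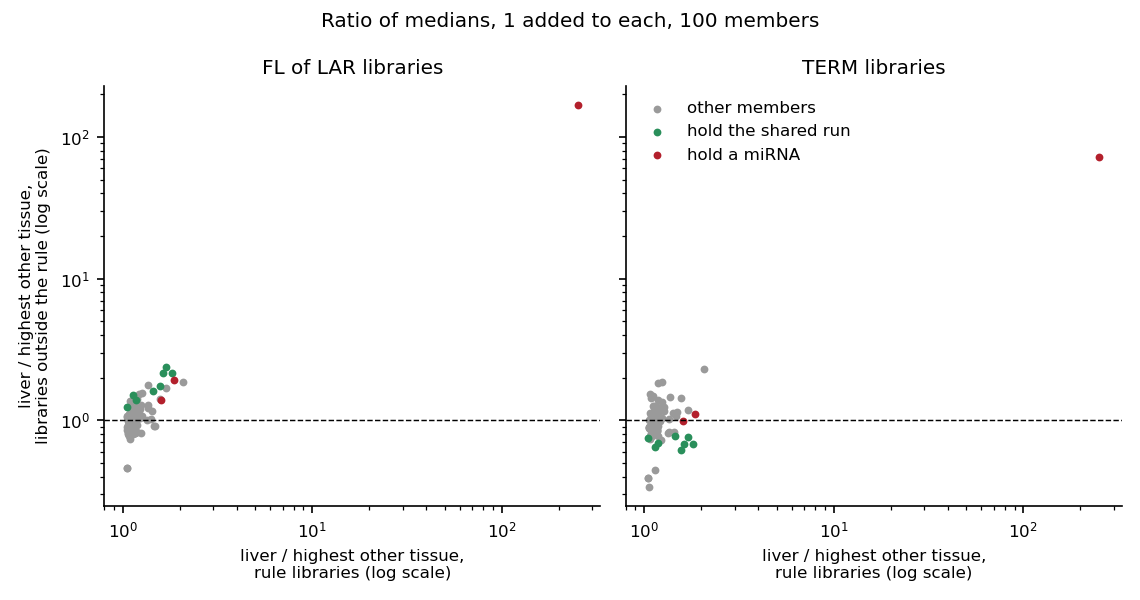
Ratio of the liver median to the highest other tissue median, 1 added to each, for the 100 members in the libraries of the choice (x axis) and in FL of LAR (left) or TERM (right), all axes on a log scale. The dashed line marks a ratio of 1. Gm29966 keeps the highest ratio in both, and the 8 members with the shared run fall below 1 in TERM.

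In the fit of FL of LAR, 80 of the 100 members passed the filter on low counts, and 66 were higher in liver than the mean of the other tissues and 0 lower, where 12.7% of all 4769 lncRNAs tested were higher and 6.44% lower. Members with a low level could pass the filter through liver alone, so this count supports nothing by itself. With no filter the count was 69 of 100 (9.24% of all). In TERM 97 passed, and 75 were higher and 0 lower (25.0% of 6849 higher and 9.72% lower), or 77 of 100 with no filter (22.7%). The median difference over the members tested was 2.40 in FL of LAR and 1.51 in TERM, against 0.19 and 0.20 over all lncRNAs tested (log2). These medians cover only members that passed the filter, so they share its limit and support nothing by themselves. Without the libraries against their label the counts were 65 (14.6% of all) and 76 (24.6%).

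No member was called between flight and control livers. The question was whether the liver fragments changed with flight (FL and HGC), with flight and housing together (FL and VGC) or with housing (HGC and VGC). In LAR 79 members passed the filter and 0 were called in each of the 3 comparisons by edgeR at an adjusted p under 0.05, where 0% of 3448 lncRNAs were called. In TERM 75 passed and 0 were called, where 0.0485% of 4120 lncRNAs were called between FL and VGC and 0% in the other 2 comparisons. Without adjustment, 4, 2 and 4 members in LAR had a p under 0.05 (in the order FL and HGC, FL and VGC, HGC and VGC), where 8.00%, 8.90% and 4.70% of all lncRNAs did. In TERM it was 5, 7 and 4 members, where 5.34%, 5.32% and 5.36% of all did. Without the libraries against their label it was 12, 3 and 11 members in LAR (7.00%, 7.35% and 4.99% of all) and 7, 4 and 4 in TERM (6.06%, 7.23% and 3.22%), with 0 called. DESeq2 and the Wilcoxon rank-sum test also called 0 members in each of the 6. DESeq2 called 17 of 3448 lncRNAs between FL and HGC in LAR, 16 higher and 1 lower. It called 1 of 4120 in each of the FL comparisons of TERM and 0 in the others. The Wilcoxon test called 0 lncRNAs in LAR and in the FL comparisons of TERM. The members of the LAR comparisons were chosen on their control livers, and members chosen by the same ratio on the TERM controls gave 0 calls there too.

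The 8 members with the shared run had their highest LAR median in FL. Without the libraries against their label, their sum in LAR ran from 11.0 to 42.7 RPM in FL (median 25.5, n = 8), from 2.83 to 19.3 in HGC (median 11.6, n = 8) and from 13.0 to 31.0 in VGC (median 18.8, n = 8). FL and HGC overlapped in part. D730045A05Rik alone ran from 1.92 to 6.13 RPM in FL and from 0.472 to 2.58 RPM in HGC. Its difference of FL from HGC was 1.12 ± 0.32 (log2, SE; edgeR adjusted p = 0.311) in these livers and 0.90 ± 0.50 with all libraries (adjusted p = 0.754). Over the 8 the median difference was 1.04, with 5 of them at an unadjusted p under 0.05 (7.00% of all lncRNAs were), against 0.87 and 0 of 8 with all libraries (8.00% of all). HGC was also below VGC by a median of 0.61 in these livers, with 4 of the 8 at an unadjusted p under 0.05 (4.99% of all lncRNAs were). The HGC and VGC livers were among those that chose the members.

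The 3 abundant members varied widely between livers. In LAR, Gm29966 ran from 266000 to 354000 RPM in FL (median 301000, n = 8), from 122000 to 454000 in HGC (median 336000, n = 8) and from 130000 to 424000 in VGC (median 305000, n = 8), without the libraries against their label. In TERM it ran from 168000 to 303000 in FL (median 232000, n = 10), from 76800 to 326000 in HGC (median 187000, n = 9) and from 41700 to 304000 in VGC (median 140000, n = 8). The arms overlapped in both extractions, and FL had the narrowest range in each. The difference of FL from HGC was −0.13 ± 0.28 in LAR (log2, SE; edgeR adjusted p = 0.981) and 0.32 ± 0.41 in TERM (adjusted p = 0.957). With all libraries it was −0.28 ± 0.82 and 0.39 ± 0.64, so the SE in LAR was larger with the 5 LAR libraries against their label in the fit.

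Gm49890 in TERM had medians of 2560 RPM in FL (888 to 3450), 1500 in HGC (917 to 4260) and 1720 in VGC (393 to 2370) without the libraries against their label. Its difference of FL from VGC was 0.53 ± 0.36 (log2; edgeR adjusted p = 0.879). E130102H24Rik in TERM had medians of 3210 RPM in FL (1910 to 6020), 1830 in HGC (990 to 6810) and 2360 in VGC (737 to 3580), and its difference of FL from HGC was 0.39 ± 0.38 (adjusted p = 0.907). All 3 hosts thus had their highest TERM median in FL, within overlapping ranges, when scaled to lncRNA counts. Scaled to miRNA counts in the same livers, medians in FL, HGC and VGC of TERM were 356000, 337000 and 354000 for miR-122-5p. They were 3960, 3240 and 3580 for miR-31-5p. They were lowest in FL for miR-101a-3p (1810, 2010 and 2160) and miR-101b-3p (4730, 5480 and 5800). These ranges overlapped too, and the first place of FL was not shared by miR-101 on this scale. In LAR the medians of Gm49890 were 3430, 3450 and 3390 RPM in FL, HGC and VGC, and those of E130102H24Rik were 5580, 4650 and 4710 RPM. Together the 100 members took 29.1% of liver lncRNA counts in FL of LAR and 13.9% in VGC of TERM (medians over all libraries), nearly all of it Gm29966.

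**Figure D5:**
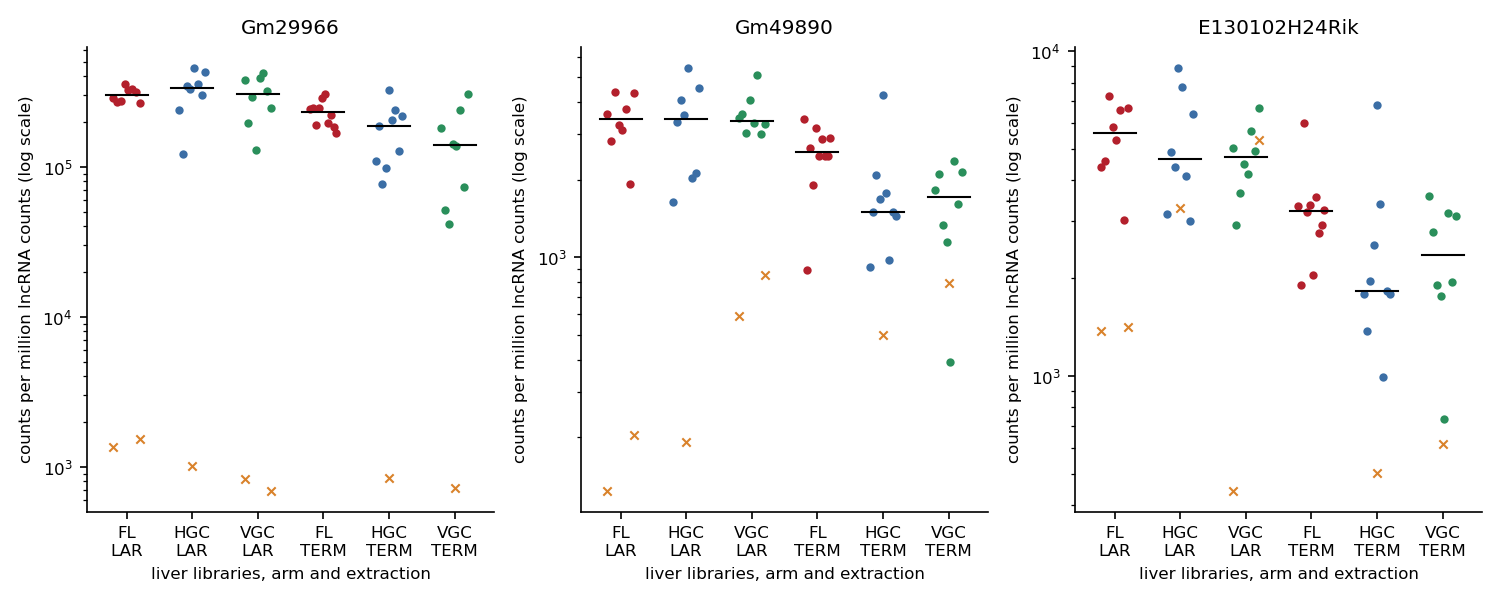
The 3 members that hold a miRNA in each liver library, as counts per 1000000 lncRNA counts on a log scale, by arm and extraction. Dots are libraries that kept to their label, bars are their medians, and crosses are the 7 libraries against their label. The arms overlap within each extraction.

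No member was called between the ages either. Between 8 and 3 months 0 members were called in LAR (0.174% of all lncRNAs were) and 0 in TERM (0%), with 3 and 4 members at an unadjusted p under 0.05 in edgeR (9.40% and 8.30% of all lncRNAs). DESeq2 called 0 members in both, and 13 and 1 lncRNAs in all. Gm29966 had medians of 314000 RPM at 3 months (122000 to 454000, n = 13) and 326000 RPM at 8 months (130000 to 424000, n = 11) in LAR, and of 181000 RPM (n = 15) and 212000 RPM (n = 12) in TERM, without the libraries against their label. The age difference was 0.04 ± 0.25 in LAR and 0.33 ± 0.36 in TERM (log2; edgeR adjusted p = 0.994 and 0.757).

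The difference of flight between the ages was tested as an interaction, (FL minus HGC at 8 months) minus (FL minus HGC at 3 months). In TERM the call of 3 members with the shared run depended on the tool. For D730045A05Rik the 3-month FL livers held 0.656, 0.490, 0.483, 0.513 and 1.59 RPM, and the 3-month HGC livers held 0.909, 1.95, 0.914, 1.52 and 3.85 RPM. At 8 months FL held 1.72, 2.99, 1.55, 2.34 and 1.65 RPM. HGC at 8 months held 0, 0.143, 0.773, 1.31 and 0.787 RPM, the 0 being the library against its label. FL was mostly below HGC at 3 months and above it in all 5 livers at 8 months, on counts of 0 to 20. The interaction was 3.36 ± 0.82 (log2) with an adjusted p of 0.486 in edgeR, where 0 members and 0% of all lncRNAs were called and 6 members had an unadjusted p under 0.05, where 4.85% of all lncRNAs did. DESeq2 called it (3.50, adjusted p = 0.00958) with AC106834.1 and Gm27224, which hold the same run, where 0.0730% of all lncRNAs were called higher. With the plate number of the study's library list as a term (the list does not say for which step), 0 of the 8 members with the run had an unadjusted p under 0.05, and their interactions ran from −1.23 to 1.65. In LAR the interaction gave 0 calls (0%), with 4 members at an unadjusted p under 0.05, where 3.45% of all lncRNAs had one, and 0 called by DESeq2.

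LAR and TERM were compared in FL livers. These libraries did not choose the members, but the members were picked for high liver values in LAR controls, so what LAR livers share is part of the choice. The direction followed the list: the median difference (LAR minus TERM, log2) was 0.30 over these members and −1.80 over members chosen in the same way on TERM controls, of which 38 of 99 were called, all lower in LAR. The counts of members are therefore a description and support no direction. In edgeR 3 of 91 members were called, all lower in LAR, where 5.49% of all lncRNAs were called, 4.44% lower and 1.05% higher. Gm16548 (chr1:164148591-164152217, minus strand, 1226 exon bases) overlaps exons of the coagulation factor gene F5 and of Selp on the opposite strand. It had 0 to 0.394 RPM in LAR (median 0, n = 10) and 0.235 to 2.75 RPM in TERM (median 0.769, n = 10), a difference of −3.36 ± 0.73 (log2, adjusted p = 0.00237). 2310015A16Rik (chr17:31907879-31909029) had 0 to 0.396 RPM in LAR (median 0.06) and 0 to 4.05 RPM in TERM (median 1.30), a difference of −3.22 ± 0.73 (adjusted p = 0.00379). Gm8883 (chr1:71888117-71890735) had 0 to 0.600 RPM in LAR (median 0.0892) and 0.264 to 1.87 RPM in TERM (median 0.849), a difference of −2.16 ± 0.67 (adjusted p = 0.0422). DESeq2 called Gm16548 and 2310015A16Rik but not Gm8883 (2.92% of all lower). The call of Gm8883 was also lost with no low-count filter, with the plate term, with the total of the 7 RNA classes and without the top transcript. With the plate term 4 members were called, the other 2 of these lower in LAR and 2 transcripts of 1700030N03Rik higher by 2.39 ± 0.70 (adjusted p = 0.0415), where 2.54% of all lncRNAs were lower and 0.379% higher. Without the top transcript Gm45056 was called higher in LAR (1.17 ± 0.36, adjusted p = 0.0401). The ranges overlapped for each of the 3, for 2310015A16Rik with the whole LAR range inside that of TERM, and TERM medians came to 4.0 to 9.5 counts a library. The abundant hosts were not called. The difference was −0.03 ± 0.74 for Gm29966, 0.02 ± 0.46 for Gm49890 and 0.34 ± 0.41 for E130102H24Rik with all libraries (adjusted p = 0.992, 0.989 and 0.703). Without those against their label it was 0.34 ± 0.37, 0.38 ± 0.30 and 0.61 ± 0.33 (adjusted p = 0.627, 0.47 and 0.276).

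Without the 2 FL libraries of LAR against their label, 15 members were called in this comparison, 3 lower and 12 higher in LAR, where 3.18% of all lncRNAs were lower and 1.93% higher. The choice on LAR controls favours calls higher in LAR. Of the 12, 7 held the shared run. AC106834.1 then had 2.04 to 6.93 RPM in LAR (median 5.10, n = 8) and 0.384 to 3.49 RPM in TERM (median 1.54, n = 10), a difference of 1.52 ± 0.38 (log2; edgeR adjusted p = 0.0105). With all libraries the 8 holders differed by 0.47 to 1.46 and 0 were called (adjusted p 0.104 to 0.497). The higher group also held Gm45056, which had 0.926 to 2.28 RPM in LAR and 0.396 to 0.857 RPM in TERM, 2 ranges that did not overlap. Striated muscle miRNAs, counted as a check on other cells in the piece of liver, summed to 213 to 2330 per 1000000 miRNA counts in FL of LAR (median 500) and 323 to 13700 in FL of TERM (median 1710). Their part in these differences was not tested. For the difference of flight between the extractions, 0 members were called by edgeR (0% of all). DESeq2 also called 0 members, and 7 of 4480 lncRNAs in all. In edgeR 12 members of 91 had an unadjusted p under 0.05, where 7.97% of all lncRNAs did.

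Known lncRNA groups held no member. Of the transcripts tested in FL of LAR against the other tissues, miRNA host genes named as such (8 higher and 47 lower in liver of 152), small RNA host genes (20 and 0 of 59), nuclear long RNAs such as Malat1 (0 and 2 of 10), imprinted lncRNAs (1 and 42 of 93) and a list of liver lncRNAs (2 and 3 of 7) were all outside the 100. The background was 12.7% higher and 6.44% lower. In TERM it was 12 and 73 of 174 for miRNA hosts and 27 and 2 of 60 for small RNA hosts. Nuclear long RNAs had 3 and 7 of 10, imprinted lncRNAs 2 and 63 of 98, and the liver list 9 and 3 of 12. The background in TERM was 25.0% higher and 9.72% lower. On the liver list Gm16551 had 1950 RPM in liver (transcript ENSMUST00000160979.8) but 4100 RPM in pancreas.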

How the data were processed

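Small RNA libraries of 686 tissue samples were analysed. Per the labels and the study's methods, the authors mapped reads to GRCm39 and counted them per RNA class with miRMaster. The deposited lncRNA table holds raw counts per transcript, and the deposited miRNA table holds estimated counts, since 0.79% of its values have a fraction. A read that matches several transcripts may be counted at each, and RPM values were not divided by transcript length. All 100 members, the lists and the tests were chosen with earlier results of these data known. Samples were grouped by labels, and the plate term used the plate number in the study's library list, which does not say for which step it is. Counts were tested with edgeR 4.0.16 (quasi-likelihood, TMM, Benjamini-Hochberg over all lncRNAs kept) in R 4.3.3, with limma 3.58.1 for animal blocks and DESeq2 1.42.0 as an alternative. A transcript was kept if 10% or more of the libraries of some group had 5 or more counts of it, and an adjusted p under 0.05 was a call. The scripts were tested on simulated data. Other steps used Python 3.11.15, numpy 2.4.6, pandas 2.3.3 and matplotlib 3.10.9. Liver libraries came from separate animals, and tissues of 1 animal share it.

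Members were named by rule: the 10 largest ratios, the 5 others with the highest liver medians, up to 3 called per liver comparison, the 3 lowest ratios in TERM, and those at the threshold. Others are named as chosen after their values were seen. miRNA markers of hepatocyte, erythroid, leukocyte, endothelial, mesenchymal, duct, striated muscle, neuron, exocrine pancreas and kidney cells were summed in each liver library. In the 51 livers with a liver profile the medians per 1000000 miRNA counts were 454000 for hepatocyte, 32900 for erythroid, 15600 for mesenchymal, 10800 for endothelial, 2420 for kidney, 1700 for leukocyte, 913 for striated muscle, 266 for duct, 68.5 for neuron and 33.6 for exocrine pancreas miRNAs, and no marker was at 0 in all of them. Positions and sequences come from GENCODE M21 and RefSeq on GRCm38, matched by transcript identifier for 99 of 100 members, because no annotation of GRCm39 was used here. The sequence of miR-122 was not printed.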

Additional observations from a re-analysis of the deposited data

Results flagged for a closer look

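In all, 30 sets of liver values (1 measure in 1 group each) were tested for a library far from the rest, of which chance flags about 1 in 20, and 5 had one. Gm49890 stood at 4260 RPM in liver replicate 5 of HGC of TERM, where the group median was 1500 RPM. In the same library E130102H24Rik stood at 6810 RPM against a median of 1810 RPM. E130102H24Rik also stood at 6020 RPM in replicate 3 of FL of TERM, against a median of 3210 RPM. The summed level of the 97 rare members was 103 RPM in replicate 5 of HGC of LAR (median 48.6 RPM). All 4 libraries with a value far from the rest had the profile of liver.

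The widest gap was in replicate 14 of HGC of TERM, an 8-month liver, where the 97 rare members summed to 392 RPM against a group median of 40.1 RPM and 110 RPM in the next highest liver of any group. The sum came from 1492 counts over 88 members. It was led by 2310015A16Rik with 107 counts, Gm8883 with 103, Gm32618 with 88, Gm32624 with 75, Gm16548 with 68 and Jpx with 67, so 3 of its leading members were those lower in LAR than in TERM in FL livers, a comparison this HGC library entered only through the shared estimate of the spread. Gm32618 and Gm32624 are named after their values were seen. In the 3 interaction tests of liver, edgeR called 0 members. DESeq2 called 3 in the age by flight interaction of TERM (lowest adjusted p = 0.00958), where it called 0.0730% of all lncRNAs higher. Without the low-count filter edgeR called 1 member there (adjusted p = 0.0475), and 30 of 8999 lncRNAs in all.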

How the results depend on the processing

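Most results kept their direction and side of the threshold, and 0 turned round. A few alternatives (no top transcript in the liver tables or in the column sums, and the block without libraries against their label) were chosen after seeing the data. The list itself moved: scaling to the 7 RNA classes shared 41 of the 100 members, choosing on FL of LAR 46 and on HGC and VGC of TERM 22, with Gm29966 first in each. The age by flight interaction in TERM gave 3 called members with DESeq2 (0.0730% of all lncRNAs) and 1 without the low-count filter (30 of 8999 lncRNAs in all). With single liver libraries left out it gave 0 to 3: 3 without FL replicate 5, 3 without HGC replicate 13 and 2 without HGC replicate 3. In that order, 3, 3 and 6 lncRNAs were called in all. LAR against TERM in FL gave 15 called members without libraries against their label. Most were higher in LAR, which the choice on LAR controls favours (1.93% of all lncRNAs were higher). With members chosen on TERM, a different list picked for high liver values there, it gave 38 of 99. All 38 were lower in LAR (4.44% of all lncRNAs were lower). In leave-one-out it gave 2 to 4, with 153 to 297 lncRNAs called in all. Arm comparisons gave 0 throughout. No sign change concerned a call, 194 concerned uncalled values, and 21 single calls were lost under some alternative.

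The mouse number did not pair livers of different arms, which are different animals: profiles of same-numbered mice correlated from −0.231 to 0.563 in LAR (median 0.058, 28 pairs) and from −0.424 to 0.544 in TERM (median 0.019), and 6 and 2 of 29 livers were closest to their own number. With the replicate block 0 members were called in all 6 arm comparisons, and with the animal as a block 67 (FL of LAR, 12.3% of all lncRNAs) and 74 (TERM, 21.3%) were higher in liver. Depth limits most members: 77 of the 100 had a median under 5 counts in the livers that chose them, and 81 over all 58 livers.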
